A study of Mus musculus with 12 samples.

Results

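A set of 200 abundant maternal transcripts was examined that fell more than 10-fold between fully grown germinal vesicle (GV) oocytes and ovulated metaphase II (MII) oocytes, in wild-type (WT) mice and also in mice lacking both ZAR1 and ZAR2. The members were chosen on these measurements. Of 23230 genes listed, 11502 reached 1 FPKM (read fragments relative to exon length and library size) in at least 1 library and are called the kept genes here. Among the kept genes, 1809 fell more than 10-fold in WT (15.7%), 766 in the Zar1/2-null (6.66%) and 701 in both (6.09%), with group means set to at least 1 FPKM. Among the 1454 kept genes at least as abundant in WT GV oocytes as the lowest member, 46.1%, 20.5% and 19.7% did so. Setting aside 134 genes of large families by their symbols, among them 25 Mrp, 18 Rpl, 15 Psm, 15 Eif, 12 Rps and 9 Nduf genes, left 567, of which the 200 with the highest mean in WT GV oocytes were taken. All 200 passed the filter on low values. The GV and MII levels therefore chose the members, and everything measured in those libraries is given as a description without a test. The growing-oocyte libraries took no part in the choice, so the effect of the genotype at that stage was tested. For comparison, 895 genes fell more than 10-fold in WT but not in Zar1/2-null oocytes under the same symbol rule, and the 200 of these with the highest WT GV mean are called cleared in WT only.

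The study asked how loss of ZAR1 and ZAR2 alters the maternal transcriptome. WT and Zar1/2-null oocytes were taken from C57BL6/ICR hybrid females at 3 stages, with 2 libraries of 10 pooled oocytes in each of the 6 groups. The labels give 13.5-day-old females for the growing oocytes, 21-day-old females and 44 h after PMSG (pregnant mare serum gonadotropin) for the GV oocytes, and 16 h after hCG (human chorionic gonadotropin) for the MII oocytes, without an age for the last; the study's methods give a slightly younger age for the growing oocytes. Both null alleles were made with CRISPR/Cas9 in the germ line and so are carried by every cell of the animal, the Zar1 allele by a small deletion followed by a stop codon and the Zar2 allele by a frame-shifting deletion in exon 1. The WT groups carried neither allele, and hormone injection was common to the GV and MII groups of both genotypes. The study's text describes many ovulated Zar1/2-null oocytes as halted in meiosis I, so the group called MII here holds ovulated oocytes whose meiotic stage differs between the genotypes. Nothing states that the 2 libraries of a group came from separate animals, so their spread may be technical.

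A mouse oocyte stores messenger RNA while it grows and then stops transcribing, so that a fall in the amount of a transcript after that point reflects its removal. The libraries were primed with oligo-dT, so a message with a very short tail may also be read less, which was not tested. The word cleared here names a fall in measured FPKM. A first wave of removal accompanies meiotic maturation and depends on the shortening of poly(A) tails by the CCR4-NOT deadenylase, to which BTG4 acts as an adaptor. ZAR1 and ZAR2 are oocyte RNA-binding proteins with a zinc finger at the C-terminus that associate with the 3′-untranslated regions (3′-UTRs) of maternal messages.

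The deposited values had been scaled by the authors with the ERCC spike-in, a synthetic RNA mix added to each lysate. Within a replicate number, a level is thereby meant to track the amount of RNA per oocyte. Both WT growing libraries have the factor 1, so replicates 1 and 2 stand on separate scales. The factors recovered from the values lay between 0.697 and 1 in WT growing and GV libraries, between 0.533 and 0.862 in Zar1/2-null growing and GV libraries, and between 0.225 and 0.283 in the 4 MII libraries. All 15 oocyte markers examined were at 1 FPKM or more in every group except WT MII, where 14 were. The 18 granulosa and cumulus markers summed to 5.22 to 36.0 FPKM per library, against 5006 to 25794 FPKM for the oocyte markers, and no member was a granulosa, cumulus or immune marker. In growing oocytes the granulosa and cumulus sum was 31.3 to 36.0 FPKM in WT and 14.97 to 23.6 FPKM in Zar1/2-null, and its part in the results was not tested. The table holds no read counts, so the depth behind a value is unknown.

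Of the targeted genes, Zar2 (listed as Zar1l, on mm9 chromosome 5, 151309630 to 151320739, minus strand) is itself a member. It had 639 and 644 FPKM in the WT growing libraries and 17.5 and 13.2 FPKM in the null ones. At GV it had 533 and 504 FPKM in WT and 20.9 and 19.6 FPKM in the null, and it still fell a further 17.0-fold in the null by MII. Zar1 is not a member. It had 439 and 423 FPKM in the WT GV libraries and 136 and 203 FPKM in the null ones, and its fold from GV to MII was 5.53 in WT and 0.884 in the null.

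Together the 200 members made up 8.57% and 8.23% of the summed FPKM of the WT GV libraries and 8.15% and 8.66% of the null ones. At MII their share was 0.895% and 1.07% in WT and 0.977% and 0.804% in the null. A share within a library does not depend on the spike-in factor, and the members' share was near 1% at MII in both genotypes. The same values chose the members for their fall in both genotypes, so this small share is no separate support. The genes cleared in WT only held 14.9% and 15.3% of the WT GV libraries and 2.91% and 3.09% of the WT MII libraries. In the null they held 16.7% and 16.0% at GV and 16.3% and 15.5% at MII. These genes were chosen for not falling more than 10-fold in the null, so these shares are a description as well.

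The median member was at 121 FPKM in WT GV oocytes and 3.67 FPKM in WT MII oocytes, and at 102 and 4.91 FPKM in Zar1/2-null oocytes. The median fall was 36.1-fold in WT (range 10.1 to 294) and 21.2-fold in the null (range 10.1 to 148). In every member, both GV libraries lay above both MII libraries in each genotype, and 164 members were past 10-fold in every pair of a GV and an MII library. The fall was smaller in the null in 160 members, and the share of all genes with a smaller fall was not counted. The median fold was 8.09 in WT and 2.66 in the null over the abundant kept genes. Over all kept genes it was 2.61 and 1.61. Both folds exceeded 20 in 98 members and 50 in 14, and in 63 members the smaller fold was under 15. In the genes cleared in WT only, the median fall was 25.9-fold in WT and 2.95-fold in the null.

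How deep the fall appears rests on the spike-in. With the ERCC factor divided out, the members' median fall was 10.6-fold in WT and 10.3-fold in the null, and 75 of the 200 still fell more than 10-fold in both. Near the threshold, Cct2 (10.1-fold in WT, 12.2-fold in the null), D8Ertd738e (43.3 and 10.1) and Fh1 (15.1 and 10.2) lay just inside. Nusap1 (9.94 and 10.1), Nono (14.7 and 9.91) and Hbxip (83.4 and 9.91) lay just outside. At rank 200, Abcf3, Dstn and 2210009G21Rik were included at 66.1, 66.05 and 65.4 FPKM in WT GV, and Ddit3, Gm17830 and Fkbpl were left out at 65.3, 64.9 and 64.9 FPKM.

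**Figure D1:**
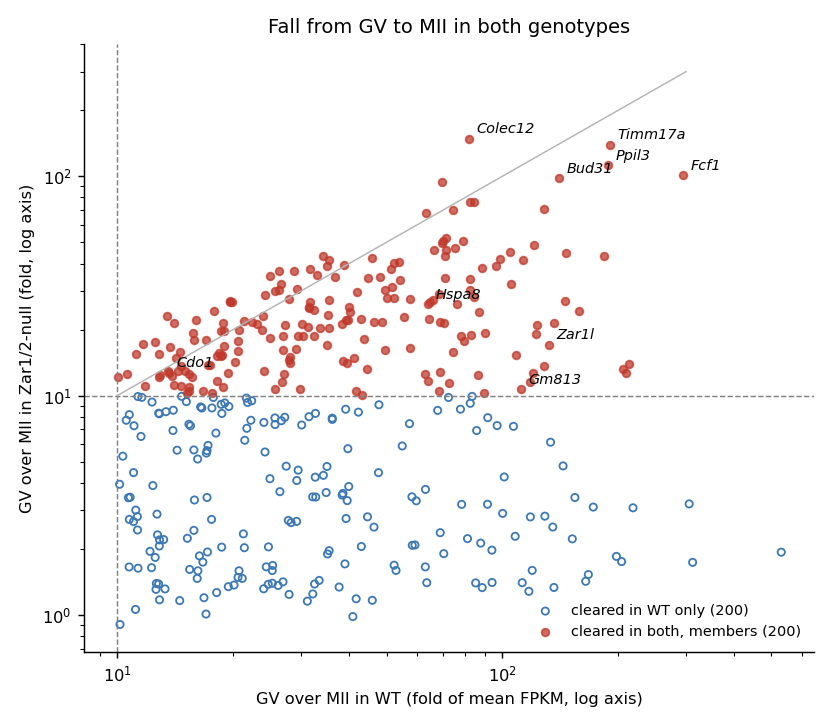
Fold of the GV mean over the MII mean in WT (horizontal, log axis) against Zar1/2-null oocytes (vertical, log axis). Filled points are the 200 members and open points the 200 genes cleared in WT only, the dashed lines mark 10-fold, and the grey line marks equal folds. On these ERCC-scaled values 160 members lie below the grey line.

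The most abundant member was Gm813 (mm9 chromosome 16, 58613799 to 58617091, minus strand), a gene without an assigned role. It had 3408 and 2588 FPKM in the WT GV libraries and 2306 and 1932 FPKM in the null ones. At MII it had 28.9 and 24.8 FPKM in WT and 265 and 132 FPKM in the null. All 4 GV libraries were high, and both null MII libraries lay above both WT ones, so that the fall was 112-fold in WT and 10.7-fold in the null. E330017A01Rik, the second most abundant gene cleared in WT only, lies on the same strand of chromosome 16. It was at 4313 and 3443 FPKM in WT GV and at 20.9 and 26.3 FPKM in WT MII, and stayed at 3112 and 2586 FPKM in null MII oocytes.

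Tlcd2, which encodes a multi-pass membrane protein with a TLC domain, had 4720 and 5088 FPKM in the WT growing libraries and 2479 and 1874 FPKM in the null ones. At GV it had 2762 and 1902 FPKM in WT and 570 and 1244 FPKM in the null. At MII it had 55.9 and 80.6 FPKM in WT and 28.0 and 14.1 FPKM in the null. The null libraries lay below the WT ones at each stage, and the fall was 34.2-fold in WT and 43.1-fold in the null. The growing-stage difference passed the test described further on (log2 fold change -1.18, SE 0.38, limma with Benjamini-Hochberg adjusted p = 0.0331).

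Gtsf1, a small zinc-finger protein of the piRNA pathway, had 1253 and 1061 FPKM at GV and 38.5 and 48.1 FPKM at MII in WT. In the null it had 820 and 741 FPKM at GV and 74.7 and 60.4 FPKM at MII. The null was thus below WT at GV and above it at MII, without overlap. The same crossing was seen in Gm813.

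Naca, a subunit of the nascent polypeptide-associated complex at the ribosome exit, had nearly equal GV levels, 795 and 691 FPKM in WT and 779 and 715 FPKM in the null. At MII it had 12.03 and 11.5 FPKM in WT and 77.1 and 41.7 FPKM in the null. Its GV groups overlapped and its MII groups did not. Elof1, a transcription elongation factor, was the only one of the 10 most abundant members to be higher in both null libraries at all 3 stages, with 631 and 691 FPKM in WT and 1021 and 1016 FPKM in the null at GV. It fell 51.2-fold in WT and 37.6-fold in the null.

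Of the other 5 of the 10 most abundant members, Tubb4b (a beta-tubulin) fell 55.6-fold and 22.9-fold, Kpna2 (an importin alpha that carries proteins into the nucleus) 27.1-fold and 12.5-fold, and Cpsf4l 28.1-fold and 14.97-fold in WT and the null. 3230401D17Rik fell 75.5-fold and 47.1-fold, and its libraries overlapped at MII. Gm13084, a PRAME-like gene, fell 29.3-fold and 30.8-fold from 687 ± 190 FPKM in WT and 292 ± 40.5 FPKM in the null (SD, n = 2 each). Tubulins and PRAME-like genes have close copies in the genome, and uniquely mapped reads were used, so the level of a single copy is uncertain.

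**Figure D2:**
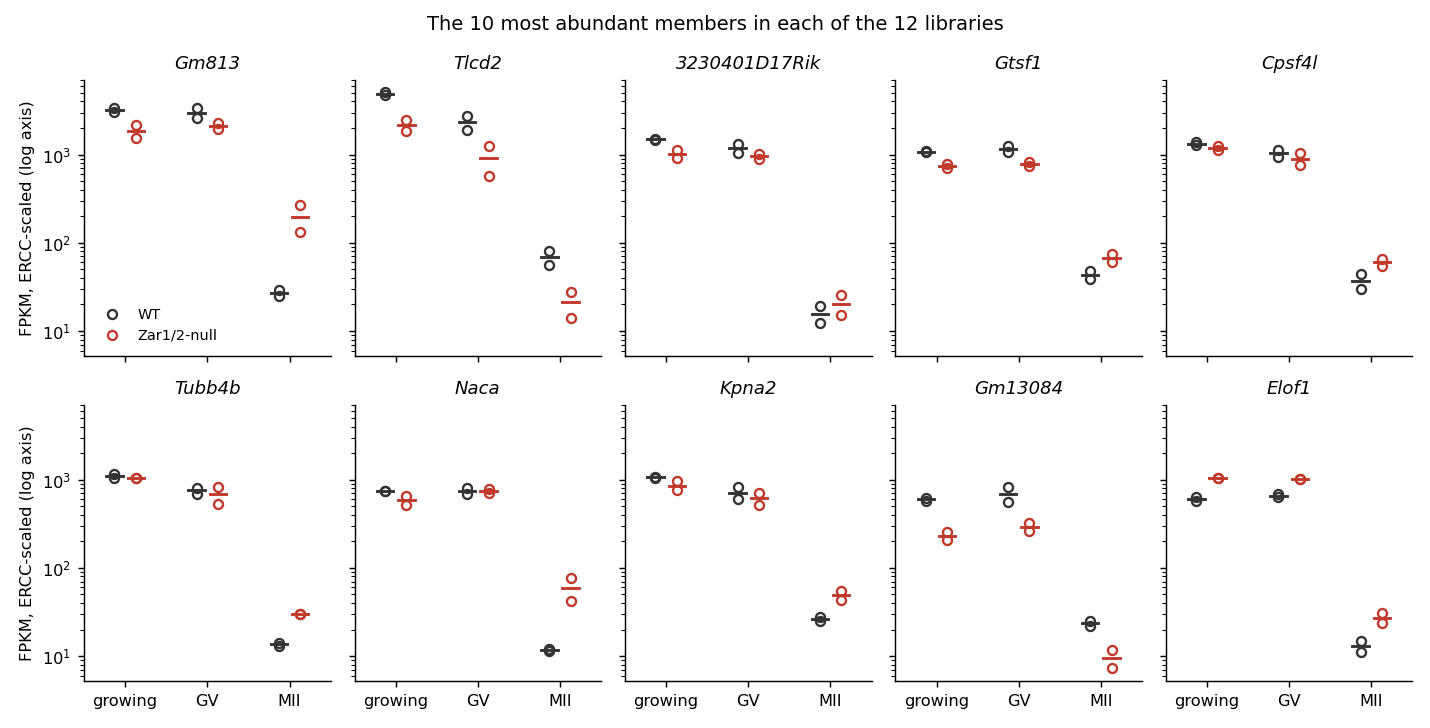
ERCC-scaled FPKM (log axis) of the 10 members with the highest WT GV mean, by stage and genotype. Circles are single libraries, 2 per group, and bars their means; Gm813 and Naca stand above WT in null MII oocytes by 7.38 and 5.04 times, whereas Tlcd2 and Gm13084 stand below WT at all 3 stages.

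The members that fell most in both genotypes were Timm17a, Ppil3, Fcf1, Bud31 and Colec12. Fcf1, which processes ribosomal RNA, had 582 and 489 FPKM at GV and 1.71 and 1.93 FPKM at MII in WT. In the null it had 546 and 452 FPKM at GV and 6.26 and 3.63 FPKM at MII. The GV groups overlapped, and the folds were 294 and 101.

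Timm17a, a channel subunit of the translocase that imports proteins through the mitochondrial inner membrane, had 594 and 533 FPKM at GV and 3.10 and 2.82 FPKM at MII in WT. In the null it had 490 and 448 FPKM at GV and 3.92 and 2.82 FPKM at MII. Its MII groups overlapped at about 3 FPKM, with falls of 190-fold and 139-fold. Bud31, a spliceosome component, fell 140-fold and 97.8-fold, and its MII groups overlapped as well.

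Ppil3, a cyclophilin-type peptidyl-prolyl isomerase, ended at 0.722 FPKM in WT, under the floor of 1 FPKM, so its fall there was at least 188-fold. It fell 112-fold in the null. Colec12, a scavenger receptor with a collectin domain, fell 82.1-fold in WT and at least 148-fold in the null, where it ended at 0.817 FPKM. In 25 members the WT MII mean was at or under 1 FPKM, in 8 the null MII mean was, and only Dydc2 was under it in both, so these folds are lower bounds.

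The 3′ ends of 8 members are shown because deadenylation and cytoplasmic polyadenylation act at this end of a message. They are the 4 most abundant members and the 4 that fell most in both genotypes whose ends could be read, followed by the 3 most abundant genes cleared in WT only. Each line holds the last 30 bases of the annotated transcript (GENCODE vM1 on NCBIM37, the build also named mm9), written 5′ to 3′ as DNA on the strand of the gene. Capitals mark the polyadenylation signals AATAAA and ATTAAA and the motif TTTTAT, a cytoplasmic polyadenylation element, found on that strand only.
Gm813 (chr16:58613799-58613828, minus strand): tagttctcattgatgaaaAATAAAtctgtt
Tlcd2 (chr11:75284372-75284401, plus strand): gAATAAAttgctgtgcaaatgatttcatca
3230401D17Rik (chr2:163231558-163231587, minus strand): ataaacccctgctggtgctgtttatccaga
Gtsf1 (chr15:103232836-103232865, minus strand): aactgctgagactttactcctcaattattt
Timm17a (chr1:137198109-137198138, minus strand): ggcttctgggacttaacctttcctttgaaa
Ppil3 (chr1:58487841-58487870, minus strand): aatagaaagccatgcctttttttTTTTATc
Fcf1 (chr12:86324224-86324253, plus strand): ATTAAAcacattttctgatttttaaaaatg
Bud31 (chr5:145908918-145908947, plus strand): taaaAATAAAacctttagacctcctcgcta
Gm15698, cleared in WT only (chr11:88825972-88826001, minus strand): ataaatATTAAAtaaccctaaaagcacaaa
E330017A01Rik, cleared in WT only (chr16:58635280-58635309, minus strand): gggtatgcatacATTAAAtttgctttcact
Ldhb, cleared in WT only (chr6:142438769-142438798, minus strand): tgatcaAATAAAgttagcaattgcagcata

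One of the signals AATAAA and ATTAAA stood within these 30 bases in 59.8% of the 184 members with such an end, in 69.0% of 187 genes cleared in WT only and in 68.7% of 10489 kept genes. TTTTAT stood there in 3.80%, 2.67% and 4.20%. A window without a signal says only that the letters are not there, since the annotated end need not be the end used in the oocyte.

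Over the whole annotated 3′-UTR, TTTTAT was found in 34.6% of 185 members, 23.4% of 188 genes cleared in WT only, 43.9% of 1361 abundant kept genes (at or above the lowest member's WT GV mean) and 53.2% of 10530 kept genes. The median 3′-UTR was 355 nt long in the members, 293 nt in the genes cleared in WT only, 416 nt in the abundant kept genes and 879 nt in all kept genes, so that the first 3 sets had fewer positions for a match. ATTTA, the core of AU-rich elements, was present in 49.2% of the members, 45.7% of the genes cleared in WT only, 55.3% of the abundant and 65.4% of all kept genes. TGTANATA, the Pumilio motif, was present in 15.1%, 11.2%, 16.8% and 23.4%. The members thus lay nearer to the abundant genes than to all kept genes in ATTTA, TGTANATA and 3′-UTR length.

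The members were also shorter in coding length than the kept genes, with a median of 807 nt (191 members with a coding transcript of the same symbol) against 1299 nt. The genes cleared in WT only were shorter still, with a median of 496.5 nt. A coding length of at most 600 nt was found in 35.1% of the members, 62.6% of the genes cleared in WT only and 15.9% of the kept genes. Abundant genes were shorter as well: in the 1454 kept genes with a WT GV mean at or above that of the lowest member, the median was 711 nt and the share 40.4%. The symbol rule removed families of short proteins from the members and from the genes cleared in WT only. The abundant and all kept genes still hold these families, here and in the 3′-UTR values above, so the sets are not fully alike. No test was made of these differences.

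**Figure D3:**
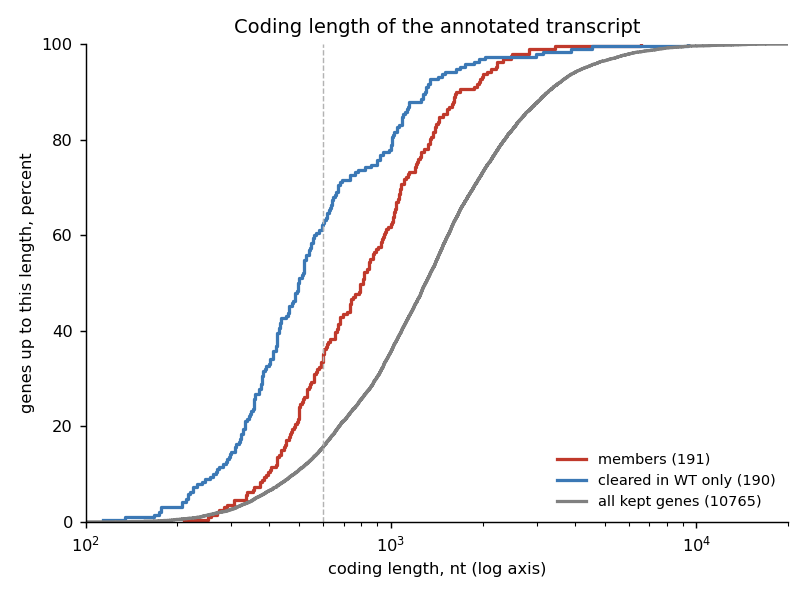
Percent of genes with a coding length up to the value on the horizontal axis (nt, log axis). The curve of the members runs between that of the genes cleared in WT only and that of all kept genes; at 600 nt (dashed) the 3 curves stand at 35.1%, 62.6% and 15.9%.

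Members of the mitochondrial import and assembly list included 7 of its 53 genes, and 11 of the 53 fell more than 10-fold in both genotypes. Tomm22, the receptor of the outer membrane translocase, fell 35.0-fold in WT and 38.9-fold in the null, and Timm9, a chaperone of the intermembrane space, fell 74.4-fold and 15.8-fold. Timm10, its partner, was not a member, with folds of 21.2 and 2.34. Vdac3, an outer membrane channel, fell 31.4-fold and 25.2-fold. Timm17b, the paralogue of Timm17a, was at 18.95 FPKM in WT GV, below the level of the members, and fell 18.95-fold or more in WT and 1.33-fold in the null. Sdhd, the membrane anchor of succinate dehydrogenase, fell 79.0-fold and 50.9-fold, whereas Sdhb of the same enzyme fell 71.8-fold and 5.50-fold.

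Of the 23 chaperonin and prefoldin genes in the table, 5 were members, among them Hspa8, the constitutive Hsc70 chaperone, at 659 ± 81.4 FPKM in WT GV (SD, n = 2). It fell 64.1-fold in WT and 26.1-fold in the null. The chaperonin subunit Cct5 fell 39.6-fold and 22.04-fold, while its partner subunits Cct3 (39.5 and 3.32) and Tcp1 (20.5 and 4.72) passed 10-fold in WT only. Dnaja1, a co-chaperone of Hsc70, fell 16.6-fold and 10.5-fold, and Vbp1, a prefoldin subunit, 23.1-fold and 21.1-fold. Thus subunits of 1 complex stood on both sides of the 10-fold rule.

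In translation, Eef1a1, the elongation factor that brings aminoacyl-tRNA to the ribosome, fell 33.7-fold and 20.4-fold from 604 ± 68.3 FPKM (SD, n = 2), and Eef1d, its exchange factor subunit, 128-fold and 71.1-fold. The COP9 signalosome subunits Cops4 (71.1 and 43.1) and Cops6 (123 and 21.01) were members, whereas Cops5 (31.4 and 8.01) and Cops3 (32.7 and 8.29) were not. Sec11c, a catalytic subunit of the signal peptidase, fell 38.5-fold and 14.4-fold, and Sec11a, the alternative subunit, 2.25-fold and 1.90-fold. Copz1 of the coatomer fell 20.6-fold and 17.8-fold, Sar1b of the COPII coat 26.6-fold and 32.1-fold, and the proteasome ubiquitin receptor Adrm1 35.1-fold and 17.0-fold.

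Calm2, which encodes the calcium sensor calmodulin, was at 619 ± 146 FPKM in WT GV (SD, n = 2) and fell 49.5-fold in WT and 30.3-fold in the null. Cfl2 of the actin-severing cofilins fell 14.2-fold and 14.8-fold, whereas Cfl1 fell 7.26-fold and 1.86-fold.

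Other lists held 1 or 2 members. Atp6v1e1, a stalk subunit of the vacuolar proton pump, fell 27.8-fold in WT and 27.5-fold in the null, and Supt4h1 of the DSIF elongation factor 64.1-fold and 11.7-fold. Hmgn1 and Hmgn2, nucleosome-binding proteins, fell more in the null than in WT (15.99 against 22.03 and 11.6 against 17.2). Rbm3, a cold-inducible RNA-binding protein, fell 14.3-fold and 12.9-fold, and its relative Cirbp 11.01-fold and 4.45-fold. Gsta4, a glutathione transferase, fell 69.6-fold and 49.8-fold, and Akr1a1, an aldehyde reductase, 25.7-fold and 10.7-fold.

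Among 69 kept oocyte-specific factors, 4 fell more than 10-fold in both genotypes, against 6.09% of all kept genes, and all 4 were members. Of these 69 factors, 59 were abundant kept genes, and 19.7% of all abundant kept genes fell more than 10-fold in both. Nobox and Lhx8, homeodomain factors of the early oocyte programme, fell 17.2-fold and 18.8-fold in WT and 13.8-fold and 10.9-fold in the null. Oog2, a PRAME-like oocyte gene, fell 18.5-fold and 19.7-fold. The remaining member was Zar1l. Figla, another oocyte transcription factor, fell 72.0-fold in WT and 4.32-fold in the null, and 18 of the 69 were cleared in WT only. A fall of more than 10-fold in WT, whatever the fall in the null, was seen in 15.7% of kept and 46.1% of abundant genes.

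Lists drawn up after the members were seen, and so no more than a grouping, held further members. Of 61 kept genes of ribosome biogenesis and RNase P, 12 were members, with median falls of 33.4-fold in WT and 24.4-fold in the null. They included Fcf1 and Emg1, a methyltransferase of the small ribosomal subunit (113-fold and 41.7-fold). Of 32 kinetochore and mitotic kinase genes, 8 were members, among them Cdk1, the kinase that drives entry into M phase, which fell from 68.3 FPKM to 0.245 FPKM in WT and from 48.2 to 1.67 FPKM in the null. Replication factors gave 5 members of 30 genes, 3 of them GINS subunits. Membrane traffic and SNARE genes gave 9 of 34 kept, with medians of 51.5-fold and 18.8-fold.

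In growing oocytes, whose libraries took no part in the choice, 56 members were lower in Zar1/2-null oocytes, 7 were higher and 137 did not pass the test (limma on log2(FPKM + 1), Benjamini-Hochberg adjusted p under 0.05 over 11502 genes). In the background of all kept genes, 24.4% were called lower and 10.6% higher. Of the 1454 abundant kept genes, those at or above the lowest member's WT GV mean, 22.5% were called lower and 1.72% higher. The members' shares were 28% and 3.5%, so their lower share lay near both backgrounds. Zar1l, a targeted gene, is 1 of the 56. All 63 called members had null libraries entirely to one side of the WT libraries. Called or not, both null libraries lay below both WT ones in 134 members (47.4% of kept genes, 63.1% of the abundant ones) and above them in 15 (22.4% and 9.35%). A difference of more than 3-fold in the means was seen in 4 members, all lower (3.54% of kept and 1.72% of abundant genes lower, 0.982% and 0.413% higher). In the genes cleared in WT only, 27 were lower and 4 higher. The spread behind the test was pooled over all stages, so it also drew on the GV and MII libraries that chose the members. With the 4 growing libraries alone, 58 members were lower and 7 higher, against 19.6% and 7.21% of all kept genes. Of the kept genes called lower in growing oocytes, 88.8% were also below WT at GV, so the contrast is not fully independent of the choice. Of the 1224 kept genes called higher, 29.2% lay above WT at GV and 29.8% below, without overlap.

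The median log2 fold change between null and WT growing oocytes was -0.30 in the members, -0.26 in the abundant kept genes and -0.16 in all kept genes. Without the ERCC factor these medians were -0.02, 0.02 and 0.08, and 33 members were called lower and 12 higher, against 12.3% and 14.9% of all kept genes. With the libraries scaled to 1 median, 36 were lower and 11 higher, against 12.8% and 10.7% of all kept genes. Of the 56 lower members, 33 were called lower under all 3 scalings, as were all 7 of the higher ones in their direction. The calls also depended on single libraries. Fewer members, and fewer of all kept genes, were called in each direction when any 1 growing library was left out. The members' median log2 fold change was -0.31 without WT replicate 1 and -0.32 without WT replicate 2. It was -0.43 without null replicate 1 and -0.18 without null replicate 2. In all kept genes these medians were -0.18, -0.14, -0.18 and -0.14.

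Besides Zar1l (log2 fold change -5.31), the 5 members called lower with the largest change in null growing oocytes were Dydc2, Vamp8, AA792892, B4galt4 and Oog2. Dydc2, a gene of the DPY30-domain family, had 76.4 and 80.3 FPKM in WT and 12.3 and 7.65 FPKM in the null, a log2 fold change of -2.89 (SE 0.19, limma with Benjamini-Hochberg adjusted p = 3.89e-06). It remained lower at GV, with 69.7 and 66.8 FPKM in WT and 11.8 and 9.15 FPKM in the null. At MII it was listed at 0 in both null libraries.

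Vamp8, a SNARE of vesicle fusion, had 148 and 144 FPKM in WT growing libraries and 18.1 and 21.2 FPKM in the null ones (log2 fold change -2.84, SE 0.20, limma with Benjamini-Hochberg adjusted p = 5.61e-06). At GV the order was turned round, with 97.3 and 112 FPKM in WT and 197 and 176 FPKM in the null. It was the only 1 of the 56 to be above WT in both null GV libraries, while 51 were below WT there without overlap. Of all 2801 kept genes called lower in growing oocytes, 88.8% were below and 1.75% above WT at GV. At MII it had 1.09 and 1.55 FPKM in WT and 12.98 and 8.04 FPKM in the null.

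AA792892, a PRAME-like gene, was at 171 ± 29.3 FPKM in WT and 42.8 ± 19.96 FPKM in null growing oocytes (SD, n = 2), a log2 fold change of -2.05 (SE 0.32). B4galt4, a galactosyltransferase, was at 73.7 ± 8.01 and 24.7 ± 3.57 FPKM (-1.54, SE 0.20). Oog2 was at 239 ± 19.8 and 84.8 ± 18.9 FPKM (-1.50, SE 0.23). For these 3, limma gave Benjamini-Hochberg adjusted p = 6.54e-04, 2.24e-04 and 5.74e-04.

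Among the 7 members called higher, the 6 with the largest change were Cdo1, Ckb, Ict1, Elof1, Fgf8 and 1110020A21Rik. Cdo1, the dioxygenase that degrades cysteine, had 114 and 105 FPKM in WT growing libraries and 314 and 310 FPKM in the null ones, a log2 fold change of 1.502 (SE 0.21, limma with Benjamini-Hochberg adjusted p = 3.67e-04). At GV it had 92.9 and 69.8 FPKM in WT and 101 and 122 FPKM in the null, a smaller gap. Ckb, the brain-type creatine kinase, had 98.5 and 155 FPKM in WT and 211 and 243 FPKM in the null (log2 fold change 0.87, SE 0.26, limma with Benjamini-Hochberg adjusted p = 0.0249), but 114 and 96.9 FPKM in WT and 49.8 and 87.9 FPKM in the null at GV.

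Ict1, a peptidyl-tRNA hydrolase of the mitochondrial ribosome, was at 109 ± 7.25 FPKM in WT and 188 ± 0.799 FPKM in null growing oocytes (SD, n = 2), and stayed higher in the null at GV and MII. Fgf8, a growth factor the oocyte secretes to its cumulus cells, was at 108 ± 10.5 and 183 ± 7.12 FPKM and fell 88.4-fold in WT and 38.2-fold in the null by MII. 1110020A21Rik, an RNA annotated as non-coding, was at 123 ± 7.61 and 204 ± 33.5 FPKM. Their log2 fold changes were 0.78, 0.77 and 0.72, and limma gave Benjamini-Hochberg adjusted p = 0.00261, 0.00832 and 0.0354. Without WT growing replicate 1 the calls of Ckb (limma, Benjamini-Hochberg adjusted p = 0.218), 1110020A21Rik (0.159), Elof1 (0.0608) and Fgf8 (0.0682) were lost. The call of 1110020A21Rik was also lost without any other growing library (0.0578 to 0.182), and that of Ckb without null replicate 1 (0.0537) or 2 (0.144).

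By list, 1 of the 7 mitochondrial members was lower in null growing oocytes (Timm17a, -0.57), as were Sec11c of the secretory list (-0.77) and Akr1a1 (-0.66). None of the 5 chaperonin, 3 translation or 3 ubiquitin members was called. Of all kept genes 24.4% were called lower and 10.6% higher, and of the abundant ones 22.5% and 1.72%. Counts from so few members cannot set these lists apart from those shares. Of the oocyte-specific members Oog2 and Zar1l were lower, and Nobox was at 357 ± 56.2 FPKM in WT and 619 ± 25.9 FPKM in the null (log2 fold change 0.80, limma with Benjamini-Hochberg adjusted p = 0.0655). All 4 PRAME-like members were lower, as were 10 of the 13 kept genes of that list, against 24.4% of all kept genes. That list was drawn up after the values were seen. Of the tRNA synthetases, Rars was lower (-0.67) and Qars higher (0.56), and Cdk7, Gemin6, Mki67ip, Mettl5, Med7 and Med17 were among the other lower members.

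**Figure D4:**
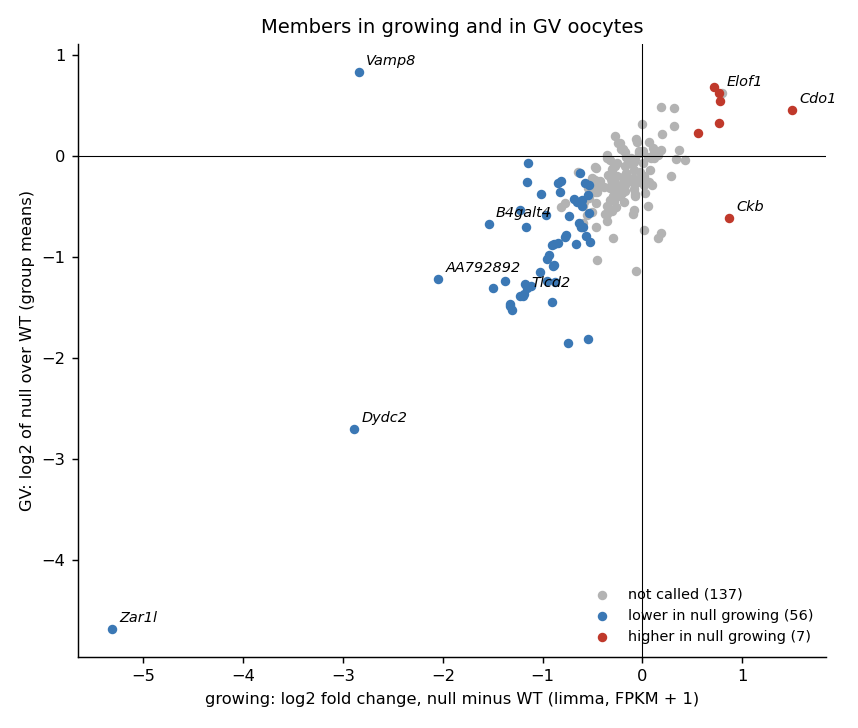
Each point is 1 of the 200 members, with its log2 fold change between null and WT growing oocytes (limma, horizontal) and the log2 ratio of null to WT group means at GV (vertical). Members called lower (56) lie mostly at the lower left, and those called higher (7) at the upper right; Vamp8 and Ckb lie in the opposite quadrants.

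A group of 13 members was under 0.5 of the WT mean at growing, GV and MII alike, a grouping made after the values were seen. The limit was met by 1.42% of all kept genes and by none of the 200 genes cleared in WT only. Neither share is a matched background. Group means were set to at least 1 FPKM, so genes low in WT at MII cannot meet the limit. The median kept gene was at 1.06 FPKM in WT MII oocytes. Genes cleared in WT only were chosen for a smaller fall in the null, which raises their ratio at MII. The share among abundant kept genes was not counted. Besides the targeted Zar1l, the group of 13 holds the PRAME-like Gm13084, Oog2 and AA792892, together with Tlcd2, Trappc9 (a subunit of a vesicle tethering complex), Acnat1 (a peroxisomal acyltransferase), Colec12, Gm8234, Gm14403, 1810030O07Rik, ORF19 and 4930564K09Rik. Trappc9 was at 648 ± 5.38 FPKM in WT and 292 ± 41.9 FPKM in null growing oocytes, and at 355 ± 78.9 and 143 ± 33.0 FPKM at GV (SD, n = 2). It fell 63.1-fold in WT and 67.7-fold in the null. Apart from Zar1l, these transcripts were lower before maturation and fell 11.8-fold to 82.1-fold in WT and 11.1-fold to 148-fold in the null.

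At GV, both null libraries lay below both WT libraries in 107 members and above them in 11 (63.6% and 6.79% of kept genes, 59.5% and 2.75% of abundant ones). A GV mean under the growing mean was found in 165 members in WT and 147 in the null (78.2% and 81.9% of kept genes, 75.5% and 74.2% of abundant ones). More than 3-fold below WT were 4 members (4.2% of kept and 2.82% of abundant genes), and none was more than 3-fold above (0.461% of kept genes). The 4 became 11 without WT GV replicate 2 and 12 without null GV replicate 2.

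At MII the order differed from gene to gene. Both null libraries lay above both WT libraries in 93 members and below them in 44 (43.5% and 27.8% of kept genes, 57.6% and 20.8% of abundant ones). More than 3-fold above WT were 30 members and more than 3-fold below 12 (7.49% and 1.32% of kept genes, 27.1% and 2.13% of abundant ones). Without null MII replicate 2 the 12 became 7. The members' median ratio of null to WT was 1.18, with 1.52 in replicate 1 and 0.992 in replicate 2. It was 1.02 without the ERCC factor and 0.935 with the libraries scaled to 1 median. Its direction thus depended on the replicate and on the scaling. In the genes cleared in WT only, 152 were more than 3-fold above WT and the median ratio was 7.54. Fewer oocytes holding a transcript and less transcript per oocyte cannot be told apart in pools of 10.

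**Figure D5:**
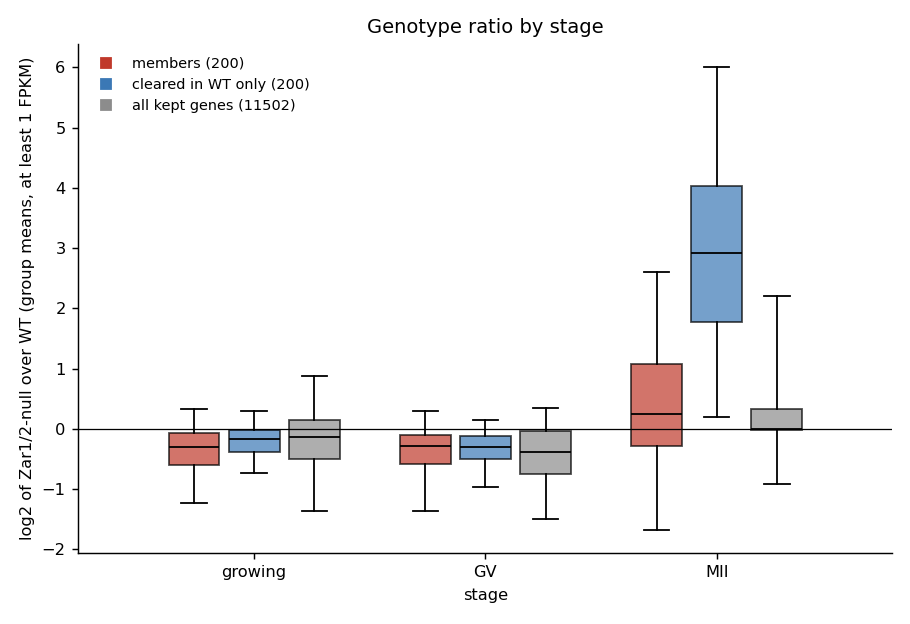
Log2 ratio of Zar1/2-null to WT group means (set to at least 1 FPKM) at each stage for the members, the genes cleared in WT only and all kept genes. Boxes span the quartiles with the median as a line, and whiskers the 5th to 95th percentile. At MII the members' median ratio is 1.18 (1.52 in replicate 1 and 0.992 in replicate 2) and that of the genes cleared in WT only is 7.54.

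The members that stayed highest in the null relative to WT at MII were Pin4, 1810035L17Rik, Fam162a, Znrd1 and 1110020A21Rik. Pin4, a parvulin-type isomerase, had 229 and 191 FPKM at GV and 0.404 and 0.703 FPKM at MII in WT. In the null it had 215 and 166 FPKM at GV and 19.3 and 10.6 FPKM at MII. The WT libraries were under the floor of 1 FPKM, so the null stood at least 14.97 times above WT there. Fam162a, a mitochondrial protein induced by low oxygen, had 1.98 and 1.77 FPKM in WT and 29.5 and 16.7 FPKM in null MII oocytes, a ratio of 12.3. Znrd1, a subunit of RNA polymerase I, had 0.227 and 0.575 FPKM in WT and 13.7 and 10.1 FPKM in the null. These genes fell 120-fold or more in WT and between 12.7-fold and 19.1-fold in the null, and so lie close to the threshold that separates members from genes cleared in WT only.

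With group means set to at least 1 FPKM, the members lowest in the null relative to WT at MII were Colec12, ORF19, Gm8234, 2210009G21Rik and Ssbp1. Their ratios ran from 0.227 to 0.276. The null means of Colec12 and Ssbp1 were under this floor, so their ratios are upper bounds and the order within the group is uncertain. Ssbp1, the single-stranded DNA-binding protein of mitochondria, had 75.3 and 62.4 FPKM in WT and 19.8 and 19.4 FPKM in null GV oocytes, and 4.30 and 2.96 FPKM in WT and 0.548 and 0.718 FPKM in null MII oocytes. Its fall was 18.97-fold in WT and at least 19.6-fold in the null. In growing oocytes it was at 58.1 ± 6.92 and 39.8 ± 8.47 FPKM (SD, n = 2), a log2 fold change of -0.55 (limma with Benjamini-Hochberg adjusted p = 0.0476).

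Of the 56 members lower in null growing oocytes, 32 were below WT and 12 above WT at MII without overlap (57.1% and 21.4%). These shares were 52.9% and 22.1% among all 2801 kept genes called lower. The 12 include Uck2, a uridine-cytidine kinase (85.9 against 152 FPKM in growing oocytes, 7.67 against 1.04 FPKM at MII), Aven, an inhibitor of apoptosis (274 against 489 FPKM and 13.9 against 2.55 FPKM), and Igbp1 (108 against 163 FPKM and 7.61 against 1.70 FPKM), each given as null against WT. All 7 members higher in growing oocytes were above WT at MII, as were 65% of the 1224 kept genes called higher. A total of 36 members were below WT at all 3 stages without overlap, 18% of the members against 19% of kept and 16.7% of abundant genes.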

How the data were processed

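The authors lysed 10 oocytes per sample, made cDNA with Smart-seq2 from oligo-dT primers, so that a message with a very short tail may be read less, and deposited 1 table of FPKM values for 12 libraries, after trimming reads to 50 bp, mapping them to mm9 with TopHat2 2.1.1, keeping uniquely mapped reads, quantifying UCSC gene models with Cufflinks 2.2.1 and multiplying each library by an ERCC factor (tools and build per the labels). Groups came from the sample titles.

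Here the factors were recovered from the values, which return to 6 significant digits once divided. A gene was kept where any library reached 1 FPKM. Group means were set to at least 1 FPKM before folds were taken. The model on log2(FPKM + 1) was fitted with limma 3.58.1 (R 4.3.3) over all 12 libraries with 1 term per group, eBayes with an intensity trend and Benjamini-Hochberg adjustment over 11502 genes. The pseudocount of 1 FPKM makes the fold change of a low gene smaller. On simulated data for the growing contrast with 200 of 11502 genes changed 3-fold, 94% were recovered and 7.84% of the calls were false. The changed genes were drawn from the more highly expressed ones, and no error in library scaling was put in. The 56 lower members had a median log2 fold change of -0.90, a smaller change, so these rates need not hold for them. Both WT growing libraries have the factor 1, so that libraries of one replicate number share their own WT growing library as the scaling reference. No label ties them to an animal or day, and the correlations of their deviations ran from -0.12 to 0.16 over the pairs of groups (0.16 for the growing contrast), so the numbers were not used as pairs. A symbol match to GENCODE vM1 gave positions for 194 members and coding transcripts for 191.

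The members, gene lists and comparisons were chosen with earlier results of these data known. Named genes are the 10 with the highest WT GV mean, the 5 that fell most in both genotypes, up to 6 in each direction among those called in growing oocytes, the 5 at each end of the null to WT ratio at MII, those beside the thresholds and up to 4 members of each list. Others were named after their values were seen. Alternatives were other scalings, floors, pseudocounts and filters, geometric means, other fits and leaving out each library.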

Additional observations from a re-analysis of the deposited data

Results flagged for a closer look

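The following genotype effects pointed the other way from the effect of the same member in growing oocytes, with every null library on one side of WT at one stage and on the other side at another. The difference between stages was not tested. Only genes named by the rules above are listed, and other members that cross, such as Uck2, are left out. Both null libraries lay below WT in growing oocytes in 47.4% of kept genes, and above WT at MII in 43.5%. The share of kept genes doing both was not counted. The members' median ratio in growing oocytes was 0.809, and 0.987 without the ERCC factor. At GV the effects listed were Vamp8, with a null to WT ratio of 1.78, and Ckb, with 0.653. At MII the ratio was 7.38 for Gm813, 1.56 for Gtsf1, 1.63 for Cpsf4l, 2.2 for Tubb4b, 5.04 for Naca, 1.87 for Kpna2, 1.29 for Ppil3, 2.72 for Fcf1, 7.97 for Vamp8, 15 for 1810035L17Rik and 12.3 for Fam162a, each of these lower in both null libraries in growing oocytes.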

How the results depend on the processing

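The spike-in factor moved most values. Without it, 218 genes fell more than 10-fold in both genotypes in place of 567, and with median scaling 56. A floor of 0.1 FPKM gave 1136. The members' median fall was then 10.6-fold in WT and 10.3-fold in the null without the factor, and 5.48-fold and 6.43-fold with median scaling. The median ratio of null to WT became 0.987 and 0.917 in growing oocytes and 1.12 and 1.24 at GV, in place of 0.809 and 0.819. At MII it became 1.02 and 0.935, in place of 1.18. In growing oocytes 33 members were called lower and 12 higher without the factor (73.3% of calls lower, against 88.9%). Of all kept genes 12.3% and 14.9% were then called. With median scaling 36 and 11 members were called, against 12.8% and 10.7% of all kept genes. With no filter on low values 34 and 4 were called, against 11.4% and 5.37% of all 23230 genes. More than 3-fold in the means gave 4 lower and 0 higher. More than 3-fold above WT in growing oocytes was 1 member under each of those scalings, more than 3-fold below WT at GV were 2, and more than 3-fold below WT at MII were 22 with median scaling. Leaving out 1 library gave 506 to 624 genes past the rule, 22 to 54 members lower and 2 to 5 higher in growing oocytes, 3 to 12 more than 3-fold below WT at GV and 7 to 15 at MII. Libraries of one replicate number share a scaling reference. With the replicate number as a block, 66 were lower and 7 higher, and none of the 12 members named for their change in growing oocytes lost its call. Across all alternatives 96 summary values kept their direction or size and 33 moved. With no read counts, the precision of a single low value is unknown, which limits the MII values near 1 FPKM most.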

Other observations

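Chromosome 4 held 23 members with a position, 11.9% against 6.50% of the kept genes, among them Gm13084, Oog2 and Acnat1. Some of these are neighbouring copies of 1 family and are not independent.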
